A study of Mus musculus with 6 samples.

Results

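The genes described here are markers of the fibroblasts of the meninges, the membranes around the brain, and of the fibroblasts that line larger brain vessels. They are 30 genes listed by symbol as known markers, out of 52459 symbols in the count table, and the listing used no threshold on the values. All 30 were found, all had counts in each library, and all passed the filter on low counts that left 19565 genes for testing. The samples were whole brains of C57BL/6 mouse embryos at E14.5, 3 labelled Mfsd7c-/- knock out and 3 labelled wild type, with bulk RNA sequencing of each. The libraries are called KO1, KO2 and KO3 and WT1, WT2 and WT3, and values are given in that order. The labels give no litter, sex or dissection record, and no detail of the deleted allele, so p-values measure only the spread between these 6 samples.

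Meningeal fibroblasts arise from neural crest and mesoderm and form the pia, the arachnoid and the inner dura. They make fibrillar collagens and proteoglycans, depend on forkhead transcription factors such as Foxc1, and are a main source of retinoic acid for the developing forebrain. Most of their matrix genes are shared with fibroblasts of skin, with bone-forming cells and with muscle connective tissue, which lie close to the brain in the embryonic head. Some members are not confined to fibroblasts: Nnat is abundant in neural cells, Zic1 marks dorsal neural progenitors as well as meninges, Igfbp2 is made by radial glia and choroid plexus, and Pdgfra marks oligodendrocyte precursors. In bulk samples, fewer cells of a type and less RNA per cell cannot be told apart.

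Libraries held 43784619 to 50549673 counts. Mfsd7c, whose current symbol is Flvcr2, had 119, 129 and 130 counts in KO1, KO2 and KO3 and 206, 291 and 259 counts in WT1, WT2 and WT3. It fell by 0.96 on the log2 scale (SE 0.146, edgeR adjusted p = 0.0271). That call was lost without KO1, KO2, KO3, WT2 or WT3, where the adjusted p was 0.109 to 0.189, and held without WT1 at 0.0108. Markers of tissue outside the brain differed between libraries. The 7 bone markers summed to 65.8 CPM (counts scaled to a common library size) in WT1 against 11.4 to 13.9 CPM in the other 5. Ibsp, the bone sialoprotein gene, made up most of the WT1 sum, at 44.2 CPM there and at most 1.04 CPM elsewhere. Sp7, Alpl and Runx2 were also highest in WT1. Dmp1 was highest in KO1 and Phospho1 in KO3, and Bglap was at most 0.0902 CPM in any library. The 10 epidermal markers summed to 545 CPM in KO1 and 469 CPM in WT1, and to 26.3 to 101 CPM in the other 4 libraries. The 10 skeletal muscle markers summed to 37.8 CPM in WT1 and to 13.1 to 20.3 CPM elsewhere. Myf5, a defining gene of muscle precursors, was at the floor in all 6 libraries and failed the filter on low counts. It was at 0.0451 CPM in WT1, 0.01995 CPM in WT3 and 0 in the others. The 8 hindbrain and spinal Hox markers summed to 95.5 CPM in WT2 and 30.2 CPM in WT3, against 0.572 to 3.31 CPM in the other 4. WT2 was also the one library with high Xist, the RNA of the inactive X of females, at 1635 CPM against at most 0.609 CPM elsewhere. The part of these tissues, and of sex, in the results below was not tested.

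**Figure D1:**
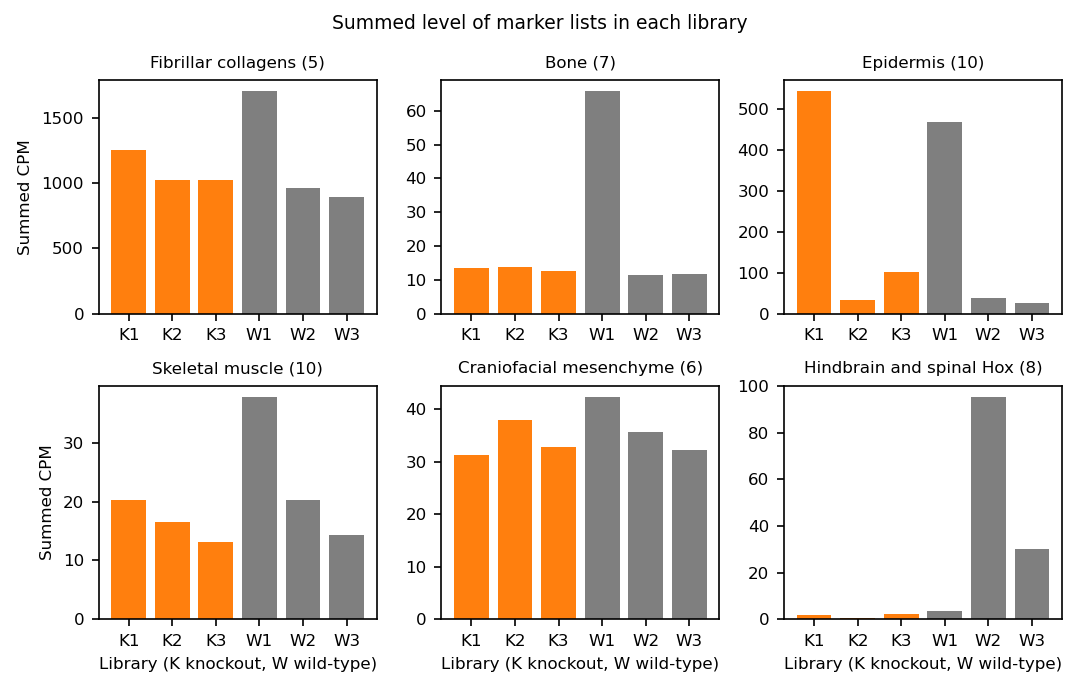
Summed CPM (vertical axes, starting at 0) of the fibrillar collagens and of 5 marker lists in each of the 6 libraries, with knockout (K) in orange and wild-type (W) in grey and the number of genes in parentheses. Bone markers stood at 65.8 CPM in WT1, mostly from Ibsp, epidermal markers were high in KO1 and WT1, and Hox markers were high in WT2 and WT3.

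None of the 30 fibroblast genes passed the genotype test. In edgeR 0 rose and 0 fell, where 129 of 19565 genes, or 0.659%, passed over the whole table, 0.624% higher and 0.0358% lower in knockout. The lowest adjusted p was 0.565, for Crabp2, and 1 member had an unadjusted p under 0.05, against 8.09% of all genes tested. The DESeq2 Wald test also called 0 members (1.48% of its genes passed), as did limma-voom. The authors' deposited table gives 0 members with an adjusted p under 0.05 (1.5% of its genes). It is not a separate result, since it holds the same DESeq2 Wald test of the same counts, with -0.253 for Col1a1 in both. By sign 13 members were higher and 17 lower in knockout. Their median log2 fold change was -0.015, beside -0.0099 over all genes tested. The 3 knockout values overlapped the 3 wild-type values for each of the 30, whereas 14.4% of all genes tested showed no overlap, 7.84% higher and 6.58% lower in knockout. The precision differed between members. For 16 of them the 95% interval of the fold change lay within 1.5-fold in either direction, and for 24 within 2-fold. The others, Col1a1, Col1a2, Lum, Mgp, Twist1 and S100a6, had wider intervals, which include a 2-fold difference.

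The 30 genes varied more between libraries of one genotype than other genes did. The highest of the 3 wild-type libraries exceeded the lowest by a median of 1.47-fold over the members, beside 1.17-fold over tested genes with a mean of at least 1 CPM. For the 3 knockout libraries these medians were 1.33-fold and 1.14-fold. WT1 was the highest of the 6 libraries for 20 of 30 members, whereas it was highest for 23.0% of all genes tested. It exceeded the mean of the other 2 wild-type libraries for 28 members, all but Zic1 and Cyp1b1, and by at least 1.5-fold for 12 members, against 3.56% of tested genes with a mean of at least 1 CPM. KO1 exceeded its own group by at least 1.5-fold for 5 members, Col1a1, Lum, Mgp, Twist1 and S100a6, against 1.81% of tested genes with a mean of at least 1 CPM. These comparisons between libraries are descriptions without a test.

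**Figure D2:**
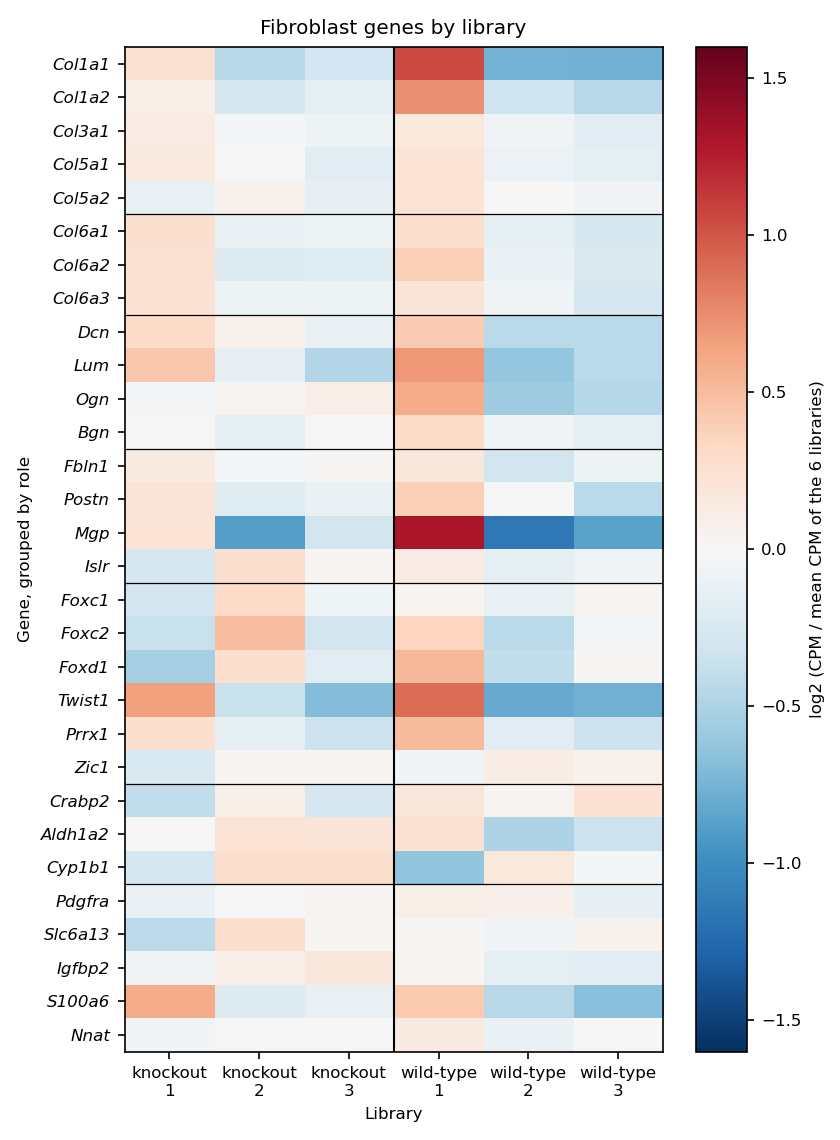
Level of each of the 30 genes (rows, grouped by role, separated by thin lines) in each of the 6 libraries (columns), as log2 of the CPM over that gene's mean CPM in the 6 libraries, red above and blue below the mean. WT1 was the highest library for 20 of the 30 genes, with Mgp, Col1a1, Twist1, Col1a2 and Lum the reddest.

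The members fell into 3 patterns by how replicate 1 stood to its own group. For 16 members it was above the mean of its group in both genotypes, and these included all collagens but Col5a2, and Dcn, Lum, Bgn, Fbln1, Postn, Mgp, Twist1, Prrx1 and S100a6. For 12 members it was above in wild-type but below in knockout. These were Col5a2, Ogn, Islr, Foxc1, Foxc2, Foxd1, Crabp2, Aldh1a2, Slc6a13, Pdgfra, Igfbp2 and Nnat. For Zic1 and Cyp1b1 it was below in both. KO1 exceeded the mean of KO2 and KO3 for 53.3% of members, against 51.8% of tested genes with a mean of at least 1 CPM. For WT1 and its group these shares were 93.3% and 53.4%. The side on which KO1 stood was thus divided among members much as among other genes. Some of its ratios lay near 1, such as 1.06 for Bgn, 0.973 for Nnat and 0.946 for Col5a2.

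**Figure D3:**
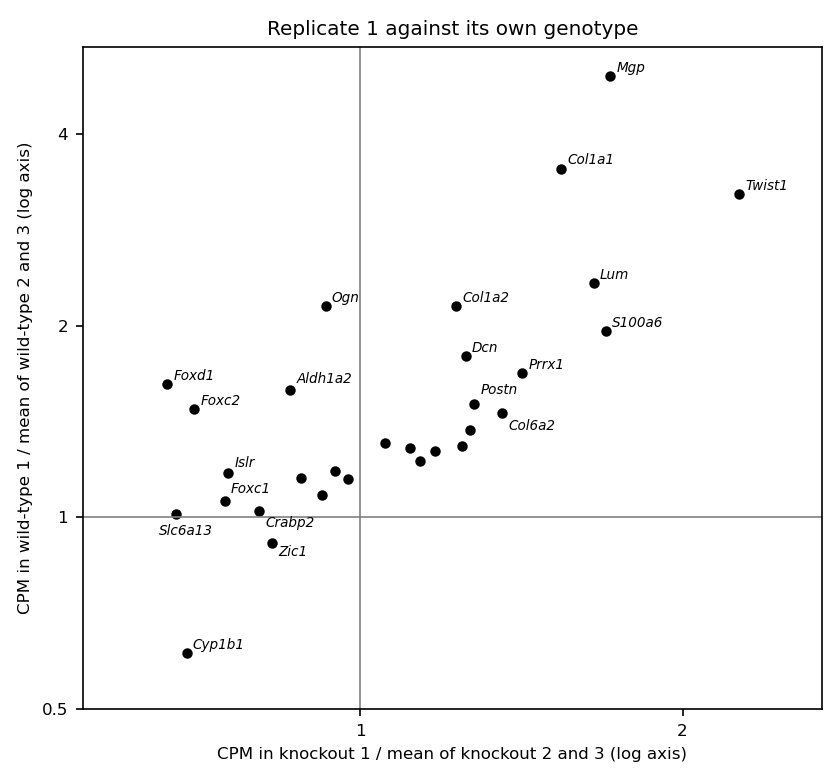
Each point is 1 of the 30 genes, placed by its CPM in KO1 over the mean of KO2 and KO3 (horizontal, log axis) and by its CPM in WT1 over the mean of WT2 and WT3 (vertical, log axis), with grey lines at a ratio of 1. Mgp, Col1a1, Twist1, Lum and S100a6 lay toward the upper right, and Foxd1, Foxc2 and Slc6a13 lay at the left.

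The upstream sequences of 4 members are shown because these genes differed most plainly in behaviour: Col3a1 varied little between libraries, Twist1 had the highest ratio of KO1 to the other knockout libraries, and Ogn and Aldh1a2 passed the genotype test once WT1 was left out. RefSeq's table on GRCm38.p6 held 29 start sites of 23 of the 30 members. The 250 bases before each start are given 5′ to 3′ on the plus strand, which is the strand of all 4 genes, and capitals mark TATAAA or CCAAT, or their reverse complements TTTATA and ATTGG. They lie at chr1:45311288-45311537 for Col3a1, chr12:33957421-33957670 for Twist1, chr13:49607765-49608014 for Ogn and chr9:71215539-71215788 for Aldh1a2.
Col3a1: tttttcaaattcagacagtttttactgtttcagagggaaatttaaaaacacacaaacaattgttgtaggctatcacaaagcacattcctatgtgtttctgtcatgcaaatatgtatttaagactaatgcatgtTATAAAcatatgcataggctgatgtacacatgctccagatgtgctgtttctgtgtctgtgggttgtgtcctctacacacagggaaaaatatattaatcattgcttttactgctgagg
Twist1: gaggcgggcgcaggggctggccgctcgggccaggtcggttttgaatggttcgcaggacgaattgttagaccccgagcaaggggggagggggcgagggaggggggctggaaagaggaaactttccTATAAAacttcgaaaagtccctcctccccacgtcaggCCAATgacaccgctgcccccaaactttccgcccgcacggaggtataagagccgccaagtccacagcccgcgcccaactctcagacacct
Ogn: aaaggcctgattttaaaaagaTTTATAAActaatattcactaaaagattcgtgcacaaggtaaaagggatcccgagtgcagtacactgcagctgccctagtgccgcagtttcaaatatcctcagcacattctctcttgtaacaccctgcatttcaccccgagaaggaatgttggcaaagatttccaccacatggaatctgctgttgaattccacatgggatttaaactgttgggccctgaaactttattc
Aldh1a2: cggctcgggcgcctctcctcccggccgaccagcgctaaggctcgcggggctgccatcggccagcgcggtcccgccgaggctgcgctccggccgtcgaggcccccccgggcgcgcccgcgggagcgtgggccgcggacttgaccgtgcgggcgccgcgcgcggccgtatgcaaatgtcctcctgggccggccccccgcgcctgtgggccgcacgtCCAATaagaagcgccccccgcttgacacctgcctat

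In these windows TATAAA, the letters of the TATA box, began 117 bases before the start of Col3a1 and 126 bases before that of Twist1. CCAAT began 89 bases before the start of Twist1 and 36 bases before that of Aldh1a2. In Ogn the 2 orientations of the TATA letters overlapped, 229 and 227 bases before the start. Over all 32851 windows of this length in the table, on either strand, 12.4% held TATAAA, 33.8% held CCAAT and 3.17% held GTAAACA, a forkhead motif. Among the 29 windows of members, 4 held TATAAA (Col3a1, Ogn, Postn and Twist1), 8 held CCAAT and 1, that of Col6a1, held GTAAACA. Those with TATAAA thus included Twist1, with a wide spread in both genotypes, Ogn, with a wide spread in wild-type alone, and Col3a1, with a narrow spread.

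The fibrillar collagens make the tensile fibres of the meninges. Col1a1 (ENSMUSG00000001506.10, chromosome 11 from 94936224 to 94953042 in GRCm38), the main chain of type I collagen, was at 302, 187 and 204 CPM in KO1, KO2 and KO3 and at 529, 151 and 149 CPM in WT1, WT2 and WT3. All 3 knockout values thus lay between the high WT1 and the other 2 wild-type libraries. Mean levels of Col1a1 came to 231 ± 61.7 CPM for knockout and 276 ± 219 CPM for wild-type (SD, n = 3 each). The log2 fold change was -0.26 (95% interval -1.95 to 1.43, edgeR adjusted p = 0.951). Col1a2 (ENSMUSG00000029661.16, chromosome 6), its partner chain, was at 338, 264 and 286 CPM in knockout and 523, 255 and 232 CPM in WT1, WT2 and WT3. It followed the order of Col1a1 with a smaller spread.

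Col3a1 (ENSMUSG00000026043.18, chromosome 1 from 45311538 to 45349706), the type III chain of pliable connective tissue, was at 434, 389 and 375 CPM in knockout and 447, 381 and 348 CPM in WT1, WT2 and WT3. The groups overlapped almost wholly, and its log2 fold change of 0.028 had an interval from -0.20 to 0.26. Col5a2, which lies nearby on chromosome 1, and Col5a1, both chains of the type V collagen that seeds fibrils, had log2 fold changes of -0.11 (SE 0.0838) and -0.0020 (SE 0.114). The wild-type values of Col5a1 ran from 74.1 to 96.7 CPM and those of Col5a2 from 93.8 to 112 CPM. Type I collagen was therefore the fibrillar pair that set WT1 apart, at 3.53 times the mean of the other wild-type libraries for Col1a1 and 2.15 times for Col1a2, beside 1.18 to 1.27 times for the other 3 chains.

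The collagen VI chains, which form beaded filaments around cells, varied together. Col6a1 was at 60.4, 47.3 and 48.0 CPM in knockout and 60.5, 45.8 and 42.5 CPM in WT1, WT2 and WT3. KO1 and WT1 were high and the other 4 close to each other. Col6a2, which lies near Col6a1 on chromosome 10, was at 62.8, 46.1 and 46.4 CPM and at 69.0, 49.2 and 45.4 CPM in the same order, and Col6a3 on chromosome 1 at 60.9, 48.9 and 49.0 CPM and at 59.8, 49.7 and 42.8 CPM. Their log2 fold changes were 0.065, -0.075 and 0.061, with SEs of 0.132 to 0.182.

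The small leucine-rich proteoglycans bind collagen and set fibril width. Dcn, decorin, was at 83, 70.4 and 62.0 CPM in knockout and 89.1, 49.7 and 49.8 CPM in WT1, WT2 and WT3. Every knockout library was above WT2 and WT3 and below WT1. Lum, lumican, whose gene lies near Dcn on chromosome 10, was at 47.2, 31.9 and 25.3 CPM in knockout and 56.6, 22.7 and 25.8 CPM in WT1, WT2 and WT3. Ogn, osteoglycin (ENSMUSG00000021390.6, chromosome 13 from 49608046 to 49624501), was even across knockout at 21.8, 22.9 and 24.0 CPM and uneven across wild-type at 33.5, 15 and 16.3 CPM. The knockout values of Ogn filled the gap between the wild-type libraries without touching either side. Bgn, biglycan, was flatter, at 42.5 to 47.0 CPM in knockout and 42.7 to 57.7 CPM in wild-type. The log2 fold changes of Dcn, Lum, Ogn and Bgn were 0.19 (SE 0.260), -0.010 (SE 0.451), 0.087 (SE 0.310) and -0.10 (SE 0.111).

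Of the other matrix genes, Mgp, the matrix Gla protein that restrains mineral deposition, had the widest spread. It was at 2.83, 1.32 and 1.98 CPM in knockout and 6.00, 1.09 and 1.34 CPM in WT1, WT2 and WT3, the latter from 266, 55 and 67 counts. WT1 was at 4.93 times the mean of the other wild-type libraries, and the log2 fold change of -0.46, the lowest of the 30, had an interval from -2.11 to 1.20. Postn, periostin, a matrix protein of periosteum and dura, was at 30.5 to 40.2 CPM in knockout and 25.8 to 45.5 CPM in wild-type. Fbln1, fibulin 1, a protein of elastic fibres and basement membranes, was at 47.6 to 53.6 CPM and 39.5 to 54.7 CPM, and its interval of -0.16 to 0.36 on the log2 scale was narrow. Islr, a leucine-rich immunoglobulin-domain protein of mesenchyme, was at 33.7, 48.2 and 41.4 CPM in knockout and 44.3, 36.3 and 39.0 CPM in WT1, WT2 and WT3, with KO1 lowest. Its exons share 6.74% of their bases with Islr2, a neural gene at 915 CPM on the same strand, so its counts are uncertain.

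The transcription factors divided. Foxc1 (ENSMUSG00000050295.4, chromosome 13 from 31806633 to 31812476), which meningeal development requires, was at 17.5, 26.4 and 20.4 CPM in knockout and 22.1, 19.7 and 22.0 CPM in WT1, WT2 and WT3. The wild-type libraries were close together, and KO1 and KO2 lay below and above them. Foxc2, its close relative in dura and cranial mesenchyme, was at 6.88, 12.5 and 7.2 CPM in knockout and 11.3, 6.54 and 8.66 CPM in wild-type. Foxd1, a forkhead factor of meninges and of stromal progenitors elsewhere, was at 9.60, 16.7 and 12.4 CPM in knockout and 19.9, 10.6 and 14.0 CPM in wild-type. All 3 forkhead genes were higher in KO2 than in the other knockout libraries. Their log2 fold changes were 0.013 (SE 0.142), 0.0097 (SE 0.272) and -0.20 (SE 0.266).

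Twist1, a factor of cranial mesenchyme and of skull suture cells, was at 13.5, 6.70 and 5.28 CPM in knockout and 16, 4.89 and 5.03 CPM in WT1, WT2 and WT3. KO1 and WT1 stood apart from the rest for this gene, at more than 13 CPM against less than 7 CPM. Its log2 fold change was -0.020 with an interval from -1.6 to 1.56. Prrx1, a factor of limb and head mesenchyme, was also highest in WT1 and KO1, at 27.5, 20.7 and 18.2 CPM in knockout and 32.5, 20.4 and 18.2 CPM in wild-type. Zic1 was at 331, 402 and 400 CPM in knockout and 380, 425 and 409 CPM in wild-type, with KO1 and WT1 lowest in their group. It shares 60 exon bases with Zic4 on the opposite strand, which is 1.05% of its exon length.

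In the retinoid group, Crabp2 (ENSMUSG00000004885.5, chromosome 3 from 87948666 to 87953376), a cellular retinoic acid binding protein of meninges, was the member nearest to a call. It was at 11.4, 15.9 and 12.4 CPM in knockout and 16.9, 15.4 and 17.6 CPM in WT1, WT2 and WT3. KO2 lay above WT2, and the other knockout libraries lay below every wild-type library. Mean levels came to 13.2 ± 2.36 CPM for knockout and 16.6 ± 1.11 CPM for wild-type (SD, n = 3 each). The edgeR test gave -0.33 on the log2 scale (SE 0.132, unadjusted p = 0.0363, adjusted p = 0.565). Its adjusted p ran from 0.210 without KO2 to 0.999 without WT2.

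Aldh1a2 (ENSMUSG00000013584.5, chromosome 9 from 71215789 to 71296243), the dehydrogenase that makes retinoic acid in meninges, had the highest log2 fold change of the 30, 0.31 (SE 0.181, edgeR adjusted p = 0.723). It was at 20.5, 24.1 and 23.7 CPM in knockout and 24.4, 14.6 and 16.2 CPM in WT1, WT2 and WT3. WT1 alone was level with the knockout libraries. Cyp1b1, a cytochrome P450 that oxidises retinoids and steroids, was at 14.8, 21.6 and 21.6 CPM in knockout and 11.5, 20.0 and 17.4 CPM in wild-type. Here KO1 and WT1 were the lowest of the 6 libraries, and the log2 fold change was 0.25 (SE 0.221).

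Of the remaining members, Slc6a13, a GABA and taurine transporter of leptomeninges, was at 23.3, 37.5 and 31.8 CPM in knockout and at 30.3 to 32.3 CPM in wild-type, where it was among the steadiest. Pdgfra, the receptor for PDGF-A and PDGF-C, was at 49.7 to 55 CPM in knockout and 48.8 to 56.9 CPM in wild-type, with a log2 fold change of -0.038 and an interval from -0.21 to 0.14. S100a6, a calcium-binding protein of pial fibroblasts and of skin, was at 11.4, 6.55 and 6.95 CPM in knockout and 10.1, 5.55 and 4.75 CPM in wild-type, high in KO1 and WT1. Igfbp2, a binding protein for insulin-like growth factors, was at 258, 286 and 301 CPM in knockout and 275, 241 and 236 CPM in wild-type, or 0.17 on the log2 scale (SE 0.0831, edgeR adjusted p = 0.658). Nnat, neuronatin, was at 3351 to 3456 CPM in knockout and 3187 to 3800 CPM in wild-type.

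Per kilobase of exon, the mean levels over the 6 libraries ran from 1883 CPM per kb for Nnat and 144 CPM per kb for Igfbp2 down to 2.07 CPM per kb for Prrx1 and 2.04 CPM per kb for Mgp. Zic1 was the third at 68.7 CPM per kb. All 3 are also known from neural cells. Col3a1 and Col1a1 came next at 40.3 and 38.7 CPM per kb, which did not differ beyond their spread, and Col1a2 was at 25.4 CPM per kb. The forkhead genes were among the scarcest, from 2.74 CPM per kb for Foxd1 to 3.65 CPM per kb for Foxc1. Exon length here joins the exons of all annotated transcripts, so it overstates the length of any single one.

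The sign of most members depended on which wild-type libraries entered the fit. Without WT1, 26 of 30 were higher in knockout, and their median log2 fold change was 0.19, beside 0.0010 over all genes. With WT1 as the sole wild-type library, 28 of 30 were lower and the median was -0.27, beside 0.0039 over all genes. WT1 exceeded the mean of the other wild-type libraries for 28 members. Leaving it out thus had to raise most fold changes, and keeping it alone had to lower them. The 2 fits restate that level and are not separate observations. Both fits share the 3 knockout libraries, and in the second the lone library is assumed to vary like the others. The wild-type libraries left in the first fit are those with the highest Hox sums. The one left in the second is that with the highest bone sum, most of it from Ibsp. Tissue content and genotype cannot be told apart in these fits.

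Without WT1, 2 members rose and 0 fell in edgeR, where 1.94% of 20045 genes passed and 1.16% were higher. The 2 were Ogn, by 0.55 on the log2 scale (SE 0.0865, edgeR adjusted p = 0.0131), and Aldh1a2, by 0.57 (SE 0.0981, edgeR adjusted p = 0.0216). Without both KO1 and WT1, which leaves 2 libraries a group and takes out those highest in epidermal markers, 5 members rose and 0 fell, where 2.31% of 19849 genes passed and 1.34% were higher. They were Aldh1a2 at 0.64 (SE 0.0931), Ogn at 0.59 (SE 0.0926), Dcn at 0.41 (SE 0.0739), Col1a1 at 0.39 (SE 0.0592) and Igfbp2 at 0.30 (SE 0.0607) on the log2 scale, with edgeR adjusted p from 0.00467 for Aldh1a2 to 0.0253 for Igfbp2. Col1a1 had the opposite sign with all 6 libraries. With WT1 as the sole wild-type library 0 members passed in edgeR, where 0.0968% of 20662 genes did, and 8 had an unadjusted p under 0.05, as did 8.53% of all genes. The other members, Foxc1, Foxc2 and Slc6a13 among them, passed in none of these fits.

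**Figure D4:**
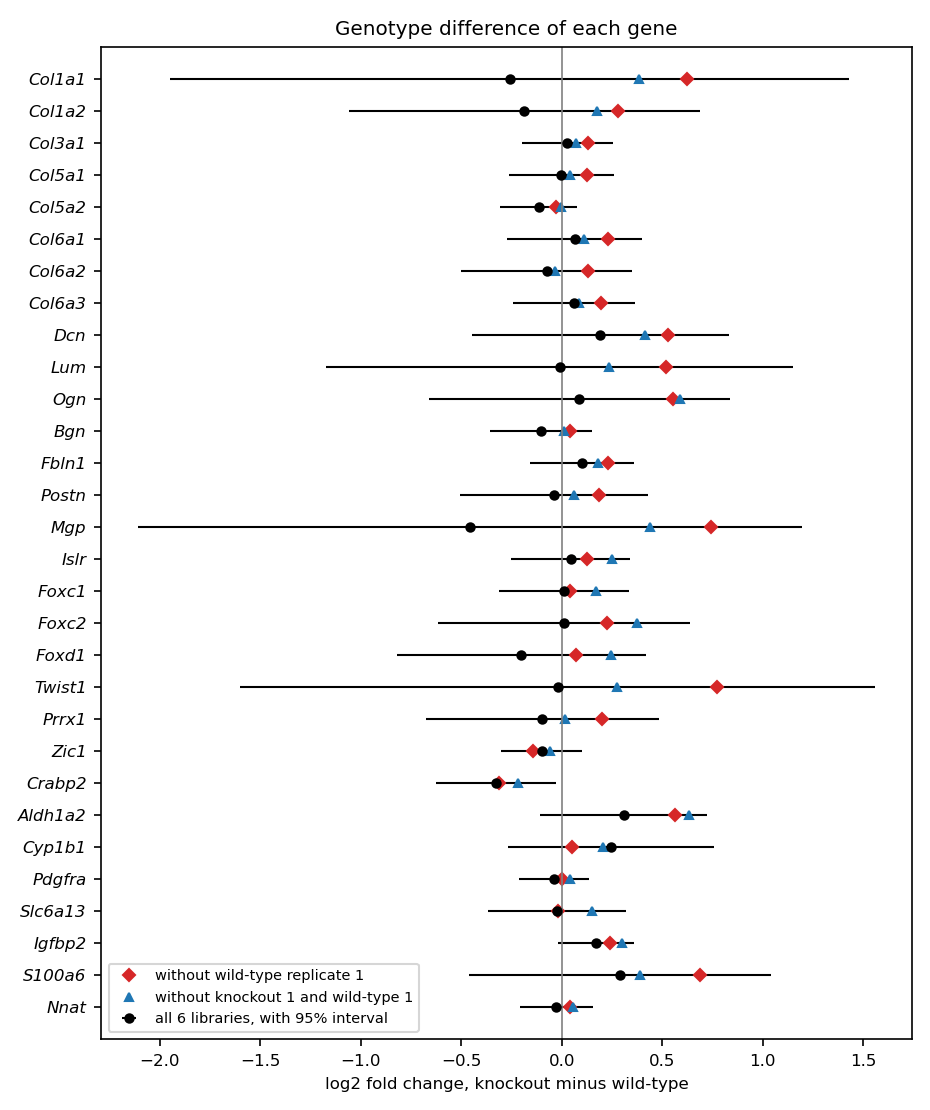
Log2 fold change of each of the 30 genes, knockout minus wild-type (horizontal axis), with all 6 libraries (black points, bars the 95% interval), without WT1 (red diamonds) and without both KO1 and WT1 (blue triangles). Each black bar but that of Crabp2 crosses 0, and most red and blue points lie above 0 although the black points scatter on both sides of it.

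The pathways around these genes were described with lists of other genes. Of 20 further meningeal genes, 0 rose and 0 fell, 1 had an unadjusted p under 0.05, and the median log2 fold change was -0.032. The gene of lowest p was Ngfr, a neurotrophin receptor of pia and of neural crest derivatives, at 16.8, 22.0 and 24.0 CPM in knockout and 21.1, 36.1 and 33.3 CPM in WT1, WT2 and WT3 (edgeR log2 fold change -0.53, adjusted p = 0.582). It passed without WT1 (adjusted p = 0.0422) and without both KO1 and WT1 (adjusted p = 0.00390). In all, 2 of the 20 passed in each of those fits, where 1.94% and 2.31% of all genes did. Of 26 tested genes of other fibrous matrix 0 passed, and Col11a1, a minor fibrillar collagen, had the lowest p (log2 fold change -0.27, edgeR adjusted p = 0.478), while 3 passed without both KO1 and WT1. Of 16 tested genes of the retinoic acid pathway 0 passed. The lowest p belonged to Cyp26b1, which breaks retinoic acid down, at 61.9, 76.6 and 74.9 CPM in knockout and 75.7, 96.7 and 102 CPM in wild-type (log2 fold change -0.36, edgeR adjusted p = 0.461). Without WT1 its adjusted p was 0.0325, and without both KO1 and WT1 it was 0.00390, with 2 and 3 genes of the list passing in those fits. Of 5 PDGF genes 0 passed, with Pdgfb, the ligand that endothelium uses to recruit pericytes, at a log2 fold change of 0.60 (edgeR adjusted p = 0.111). It passed in the DESeq2 Wald test (adjusted p = 0.00108) and with no filter on low counts (edgeR adjusted p = 0.00512).

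Some enzymes of collagen assembly passed the test. Over all genes tested, 0.624% passed as higher and 0.0358% as lower in knockout. Of 31 genes for collagen-modifying enzymes, chaperones and binding proteins 3 rose and 0 fell, and the median log2 fold change was 0.052. They were Loxl2, a crosslinking oxidase, at 26.2, 19.5 and 27.9 CPM in knockout and 11.6, 8.75 and 8.60 CPM in wild-type (log2 fold change 1.35, edgeR adjusted p = 0.00990), P4ha1, a prolyl hydroxylase subunit (1.19, adjusted p = 0.0123), and Plod2, a lysyl hydroxylase (0.68, adjusted p = 0.0372). Each of the 3 was higher in every knockout library than in any wild-type one, as were 7.84% of all genes tested. Of the 31, 9 showed no overlap between genotypes, Bmp1 and Ppib of them lower in knockout, beside 14.4% of all genes tested. The 3 calls became 1 without KO1 or KO3, where 51 and 41 of all genes passed. They became 0 without WT2 or WT3, where 36 and 44 of all genes passed. The number was 5 without WT1 and 6 without both KO1 and WT1, where 1.94% and 2.31% of all genes passed. Of 7 collagen receptors 1 rose, Itga1, an integrin chain of vessels and mesenchyme, at 28.1 to 29.7 CPM in knockout and 19.5 to 21.5 CPM in wild-type (log2 fold change 0.50, edgeR adjusted p = 0.0194). It missed the threshold without KO1, KO3, WT2 or WT3, with edgeR adjusted p from 0.0892 to 0.151. The 8 endothelial markers, all above 0, summed to 319 to 350 CPM in knockout and 260 to 316 CPM in wild-type, with 2 higher and 1 lower past the threshold. Those past it were Pecam1 and Emcn, higher, and Cldn5, lower. Log2 fold changes were 1.00 for Pecam1, 0.79 for Emcn, 0.45 for Esam, 0.19 for Cdh5, 0.18 for Tie1 and 0.15 for Kdr. They were -0.50 for Cldn5 and -0.49 for Tek, so the list did not move in one direction. The part of vessel content in the value of Itga1 was not tested.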

How the data were processed

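RNA was purified with TRIzol from whole embryonic brains, per the labels' protocols. The authors deposited whole-number counts of reads per gene symbol, without normalization, and their own table with a mean normalized signal, a log2 fold change, a Wald score, a p-value and an adjusted p-value, per the file headers. The submitters' processing notes list STAR 2.5.2a, featureCounts and DESeq2 1.12.4, and the builds mm10 and hg19 without a role. Not given in the sources used here are the annotation, the strand setting and the handling of shared reads.

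After the filterByExpr filter and TMM scaling of edgeR 4.0.16, genotypes were compared by its robust quasi-likelihood test, and p-values were adjusted by Benjamini-Hochberg over all 19565 genes (threshold 0.05). CPM uses TMM-scaled library sizes. Standard errors and 95% intervals come from the fitted model, which was tested on simulated data. Exon lengths and gene positions are from GENCODE M21 on GRCm38, where 30 of 30 symbols matched. Computations ran in R 4.3.3, with limma 3.58.1 and DESeq2 1.42.0 for alternatives.

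The members, the gene lists and the alternatives that leave out pairs of libraries were chosen with earlier results of these data known. All members are named. Of each pathway list, the genes past the threshold are named, up to 4 by p-value, or else the gene of lowest p-value. Single genes given for cell type lists were chosen after their values were seen. Alternatives were other scalings, other filters on low counts, the DESeq2 Wald test, limma-voom, a replicate block, and fits without single libraries or pairs of them.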

Additional observations from a re-analysis of the deposited data

How the results depend on the processing

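Against 129 genes called, the number was 211 with no filter on low counts, 309 in the DESeq2 Wald test, 459 without both KO1 and WT1, 20 without WT2 and WT3, and 36 to 388 without single libraries. Members called were 0 with all 6 libraries under each scaling, filter and test tried, 5 without both KO1 and WT1, and 0 to 2 without single libraries, the 2 without WT1. Mfsd7c ran from -1.04 to -0.88 (log2) without single libraries and was -0.79 without WT2 and WT3 (edgeR adjusted p = 0.381). Of 450 values of members under 15 alternatives, 368 kept direction and side of the threshold, 76 turned sign and 7 newly passed, 1 of which (Col1a1) had also turned sign. The causes were not tested. With all 6 libraries 0 members passed, so no member that turned sign could have passed there.

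Replicate numbers were not shown to pair the samples, since deviations from the genotype means correlated at 0.587, 0.310 and 0.034 for numbers 1, 2 and 3, and KO2 correlated best with WT3 (0.478). The replicate block gave 282 genes and 0 members, and its log2 values turned to 0.0016 for Col5a1, 0.060 for Lum, -0.0038 for Foxc1, -0.011 for Foxc2 and 0.082 for Twist1.

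Col5a1 turned to 0.00024 with upper-quartile factors, 0.0059 with no filter, 0.0018 in the DESeq2 Wald test and 0.0023 in limma-voom, where Lum was 0.074 and Twist1 0.11. Without both KO1 and WT1 the values that turned were 0.39 for Col1a1, 0.18 for Col1a2, 0.043 for Col5a1, 0.24 for Lum, 0.014 for Bgn, 0.060 for Postn, 0.44 for Mgp, 0.24 for Foxd1, 0.27 for Twist1, 0.015 for Prrx1, 0.041 for Pdgfra, 0.15 for Slc6a13 and 0.056 for Nnat. Without WT2 and WT3 they were -0.16 for Col3a1, -0.22 for Col6a1, -0.17 for Col6a3, -0.31 for Dcn, -0.55 for Ogn, -0.13 for Fbln1, -0.10 for Islr, -0.039 for Foxc1, -0.34 for Foxc2, -0.097 for Aldh1a2 and -0.28 for S100a6. Without single libraries the collagens ran from -0.55 to 0.62 for Col1a1, -0.39 to 0.28 for Col1a2, -0.048 to 0.13 for Col3a1, -0.083 to 0.12 for Col5a1, -0.057 to 0.23 for Col6a1, -0.24 to 0.13 for Col6a2 and -0.051 to 0.20 for Col6a3. Other matrix genes ran from -0.29 to 0.52 for Lum, -0.12 to 0.55 for Ogn, -0.19 to 0.040 for Bgn, -0.0043 to 0.23 for Fbln1, -0.22 to 0.19 for Postn, -0.84 to 0.74 for Mgp and -0.083 to 0.17 for Islr. The rest ran from -0.16 to 0.14 for Foxc1, -0.32 to 0.22 for Foxc2, -0.43 to 0.071 for Foxd1, -0.52 to 0.78 for Twist1, -0.28 to 0.20 for Prrx1, -0.10 to 0.0020 for Pdgfra, -0.19 to 0.14 for Slc6a13, -0.0085 to 0.69 for S100a6 and -0.085 to 0.043 for Nnat.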

Other observations

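Some matrix and mesenchyme genes outside the 30 were, like Twist1 and Col1a1, higher in KO1 and WT1 than in the other 4 libraries, and are given here as values chosen after they were seen. Aspn, asporin, a proteoglycan of periosteum and tendon, was at 6.86, 1.10 and 1.57 CPM in KO1, KO2 and KO3 and at 8.54, 0.617 and 0.499 CPM in WT1, WT2 and WT3. Twist2, a factor of dermal fibroblasts, was at 2.09, 0.375 and 0.313 CPM and at 1.69, 0.0796 and 0.120 CPM. Lox, the collagen and elastin crosslinking enzyme, was at 49.6, 41.1 and 29.3 CPM and at 54.4, 19.0 and 22.9 CPM.

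The remaining cell type lists differed in where KO1 and WT1 stood. Craniofacial mesenchyme markers summed to 31.2 to 38 CPM in knockout and 32.3 to 42.4 CPM in wild-type, and 0 of 6 passed. Cartilage markers summed to 168, 263 and 243 CPM in knockout and 200, 284 and 287 CPM in wild-type, and 0 of 7 tested passed. The low sums of KO1 and WT1 came from Col2a1, Col9a2, Col9a3 and Col11a2. The scarcer Acan and Cnmd were instead highest in KO1 and WT1 within their groups, Acan at 0.533 and 1.15 CPM. Choroid plexus markers, led by Ttr, summed to 680 CPM in KO1 and 1430 CPM in KO3, with wild-type from 1030 to 1170 CPM and 0 of 8 passing. Of the 10 epidermal, 6 bone, 6 skeletal muscle and 5 Hox markers tested 0 passed. All 5 of these Hox markers had an unadjusted edgeR p under 0.05, as did 8.09% of all genes tested. Their median log2 fold change was -4.86, with most of their counts in WT2 and WT3. Hoxb3, for example, was at 14.3 and 6.28 CPM in WT2 and WT3, 0.676 CPM in WT1 and at most 0.250 CPM in knockout. The filter on low counts used these same values and dropped Hoxb4, Hoxb5 and Hoxb8. No conclusion on genotype is drawn from the 5 that were left. Of 10 mural markers 0 rose and 1 fell, and of 8 endothelial markers 2 rose and 1 fell, where 0.624% of all genes tested rose and 0.0358% fell. For neural progenitors, neurons, oligodendrocyte precursors, macrophages and erythroid cells 0 markers passed, and neuron sums were highest in KO1 and WT1, at 6209 and 6537 CPM, against 5604 to 6059 CPM in the other 4 libraries. Erythroid sums were 1613, 723 and 1611 CPM in knockout and 1062, 475 and 507 CPM in wild-type.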
